A study of Oryctolagus cuniculus with 4 samples.

Results

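The WIF1/HHIP fibroblasts are stromal cells of the rabbit bladder mucosa that were picked out by 4 genes, WIF1, HHIP, PTPRQ and ADAM23. They were chosen from measured counts. A cell was kept with at least 500 UMIs (unique molecular identifiers, each standing for 1 captured RNA molecule), at least 200 genes and at most 15% of its UMIs in 13 mitochondrial protein genes. It was called a fibroblast when DCN and LUM, 2 proteoglycans of collagen fibres, together made up at least 0.5% of its UMIs and it held no UMI of PTPRC (leukocytes) or PECAM1 (endothelium). Among the fibroblasts, the number of detected genes was counted in 4 gates of 4 genes each, and a cell was a WIF1/HHIP fibroblast when it held at least 2 of the 4 genes above and more of them than of SFRP2, PCOLCE2, MFAP5 and EFEMP1, than of TCF21, EDIL3, BCHE and FAM162B, and than of APOD, CP, HSD11B1 and CPB1. This gave 140 cells out of 7580 fibroblasts and 21945 kept cells. The 3 other gates held 3590 SFRP2/PCOLCE2, 2064 TCF21/EDIL3 and 183 APOD/CP fibroblasts.

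Bladder mucosa of 4 adult New Zealand rabbits was dissociated and sequenced as single cells in droplets, with 1 library per rabbit. Injury_1 and Injury_2 were harvested on day 10 after full-thickness removal of a patch of mucosa measuring 2.0 cm on each side, and Normal_1 and Normal_2 came from bladders without a wound. All 4 tissues were minced and digested with collagenase, so every group went through dissociation, and no transgene was involved. The resection was done under pentobarbital. The submitted labels call the tissue urothelium, but 7580 of 21945 kept cells met the fibroblast rule, so the libraries cover the stroma as well. The libraries held 28745017 to 47881609 UMIs and 4308 to 6027 kept cells in the normal group and 46395632 to 46863011 UMIs and 5529 to 6081 kept cells in the injury group. Normal_1 stood apart as the shallowest, with a median of 4813.5 UMIs per kept cell against 6755 to 7186 in the other libraries. Any pair of libraries had 8 to 13 cell barcodes in common.

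WIF1 is a secreted protein that binds WNT ligands and keeps them from their receptors, and HHIP is a membrane protein that binds hedgehog ligands as a decoy and is itself switched on by hedgehog signalling. PTPRQ is a receptor-type phosphatase best known from the hair cells of the inner ear, and ADAM23 is a member of the ADAM family without protease activity. In the bladder, the urothelium releases sonic hedgehog, the stroma beneath it answers with WNT and BMP ligands, and fibroblasts close to the epithelium in gut and bladder are known for such signals.

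The 140 cells were spread unevenly over the rabbits: 40 came from Injury_1, 55 from Injury_2, 1 from Normal_1 and 44 from Normal_2. All 4 genes were detected in 104 of them, 3 genes in 30 and 2 genes in 6, and the single cell of Normal_1 held 2. Their median depth was 7888.5 and 8151 UMIs in the injury libraries, 5212 in Normal_1 and 7556 in Normal_2. They shared genes with the TCF21/EDIL3 fibroblasts. Of 875 fibroblasts with at least 2 of the WIF1/HHIP genes, 455 held more TCF21/EDIL3 genes and 270 held as many, a further 6 held as many but still more of the SFRP2/PCOLCE2 or APOD/CP genes, and in 4 the SFRP2/PCOLCE2 or APOD/CP genes were equal in number or higher. Most of the 140 also carried genes of that neighbouring gate, with 82 holding 3 of its 4 genes, 49 holding 2, 7 holding 1 and 2 holding none. A further 108 kept cells with at least 2 of the WIF1/HHIP genes had a UMI of PTPRC or PECAM1 and were left out by the rule.

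Markers of other cell types were low in the WIF1/HHIP fibroblasts, apart from contractile ones. The values are CPM, the UMIs of a gene summed over the cells of a class in a library and scaled to a common total, for the 3 libraries with at least 10 of these cells. Fibroblast markers summed to 60334 to 72514 CPM, against 81579 to 94991 in TCF21/EDIL3 and 132546 to 168164 in SFRP2/PCOLCE2 fibroblasts of the same libraries, but 2 of these 8 markers, DCN and LUM, belong to the rule. The other 6 summed to 38889 to 58017 CPM, against 46756 to 60911 in TCF21/EDIL3 and 90949 to 124652 in SFRP2/PCOLCE2 fibroblasts, so the first 2 ranges overlapped. PECAM1 and PTPRC are at 0 in the counts that follow because the rule demands it. Endothelial markers summed to 14.9 to 25.7 CPM with 5 to 6 of 8 genes at 0, immune markers to 8.95 to 35.3 CPM with 3 to 7 of 9 at 0, and epithelial markers to 8.95 to 93.0 CPM with 5 to 7 of 9 at 0. Pericyte markers summed to 0 to 11.9 CPM with 2 to 4 of 4 genes at 0, and glial and mesothelial markers stayed at or under 2.98 CPM. Smooth muscle markers, by contrast, summed to 1756 to 2476 CPM, compared with 1492 to 1684 in TCF21/EDIL3 and 163 to 289 in SFRP2/PCOLCE2 fibroblasts of the same libraries, although DES, the desmin of mature smooth muscle, lay between 0 and 9.63 CPM. Among the top 5% of kept cells by Scrublet doublet score were 4 of the 140, a share of 2.86%.

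The limit on DCN and LUM decided how many cells each rabbit contributed. When the same gate was applied without it, 785 cells were found, with 56 and 88 in the injury and 111 and 530 in the normal libraries, and the limit removed 28.6%, 37.5%, 99.1% and 91.7% of them. Of these 785 cells, 562 held all 4 genes. Their median DCN plus LUM was 1.68% of UMIs in Injury_1 and 1.02% in Injury_2, but 0% in Normal_1 and 0.0165% in Normal_2, and 84 of the 111 cells of Normal_1 had no UMI of either. Endothelial cells, which should lack both proteoglycans, had medians of 0.0150%, 0.0113%, 0% and 0.0067% in the same order, at median depths of 6947.5, 6927, 5496 and 7828.5 UMIs against 7141.5, 7722, 5801 and 7248 UMIs in the 785 cells. The normal medians of the gate thus lay near the endothelial ones and the injury medians far above. The other gates did not lose cells in this way, since the limit removed 0.338% to 1.04% of SFRP2/PCOLCE2 and 14.1% to 24.3% of TCF21/EDIL3 cells. Just inside the limit, between 0.5% and 0.6%, lay 11 cells, and 14 lay just outside, between 0.4% and 0.5%.

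**Figure D1:**
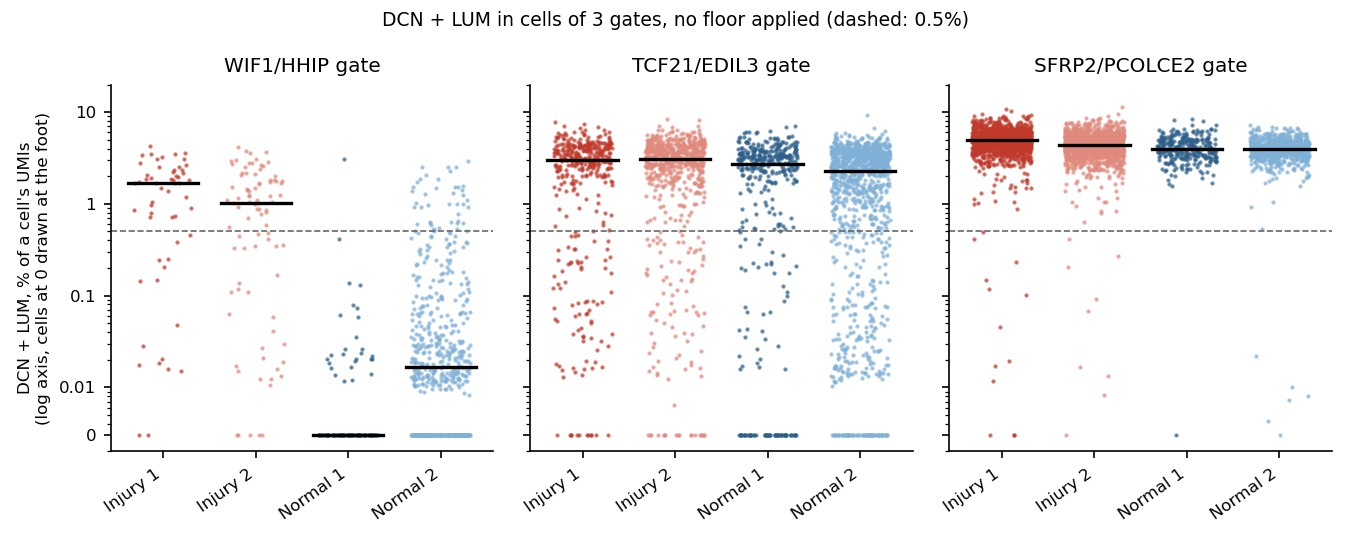
Share of each cell's UMIs in DCN and LUM (percent, log axis, cells at 0 drawn at the foot) for cells of 3 gates in the 4 libraries before any limit on these genes, with the median as a black bar and the 0.5% limit as a dashed line. In the WIF1/HHIP gate the injury medians of 1.68% and 1.02% lie above the line and the normal medians of 0% and 0.0165% below it, while the medians of the other 2 gates lie above it in every library.

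COL1A2, a chain of type I collagen, was detected in 644 of the 645 cells that lay below the limit. Their medians per cell were 13054 and 23023 CPM in the injury libraries, 7983 CPM in Normal_1 and 21406 CPM in Normal_2, close to the 15764, 23580 and 22264 CPM of the cells above the limit in Injury_1, Injury_2 and Normal_2. Endothelial cells had a UMI of COL1A2 in 17.1% to 58.4% of cases with medians of 0 to 104 CPM, and immune cells in 19.0% to 55.7% with medians of 0 to 155 CPM at lower depth (3512 to 4207 UMIs), so the cells below the limit lay far above this background. The set of 785 cells is reported beside the 140 for the comparison of injury with normal libraries and for several genes whose level in Normal_2 stood apart, and it was added after the data had been seen. It is called the gate without the limit.

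The genes that define the gate are given as a description, because they chose the cells. WIF1 stood at 249 ± 43.5 CPM (SD, n = 3 libraries), HHIP at 725 ± 277, PTPRQ at 274 ± 128 and ADAM23 at 274 ± 34.4. Detection ranged from 98.2% to 100% of cells for HHIP and from 80.0% to 96.4% for PTPRQ. Without the limit, and now over 4 libraries, they stood at 257 ± 67.6, 824 ± 240, 372 ± 106 and 321 ± 29.2 CPM. The same genes were present at a lower level in TCF21/EDIL3 fibroblasts, with 26.9 ± 7.07 CPM of WIF1, 166 ± 74.8 of HHIP, 12.8 of PTPRQ (range 9.13 to 18.0) and 39.6 ± 27.2 of ADAM23 in the same 3 libraries. Endothelial cells there had 3.03, 6.41, 2.40 and 2.33 CPM in that order, and immune cells 6.52, 22.4, 7.63 and 6.75 CPM with maxima of 14.7, 48.4, 16.1 and 14.7 CPM. The mean PTPRQ level of TCF21/EDIL3 fibroblasts thus lay within the range of immune cells, which should lack these genes, although it was the higher of both within each of the 3 libraries, while the WIF1/HHIP fibroblasts lay above it for all 4.

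Each gene was also left out of the gate in turn, so that the remaining 3 chose the cells and the fourth could be read freely. The gate then held only 6 to 14 cells in Injury_1, Injury_2 and Normal_2. HHIP was detected in 100%, 90.9% and 100% of these cells, and PTPRQ in 42.9%, 83.3% and 60%. WIF1 was detected in 81.8%, 76.9% and 54.5%, and ADAM23 in 64.3%, 76.9% and 46.2%. In SFRP2/PCOLCE2 cells of the same libraries the shares ran from 0.162% for PTPRQ to 5.56% for HHIP. In TCF21/EDIL3 cells of these 3 libraries HHIP, left out in the same way, was detected in 31.3% to 58.7%, so that the genes are shared with that gate in part.

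The genes of the TCF21/EDIL3 gate are also a description, since the rule asked for fewer of them than of the WIF1/HHIP genes and so lets a cell hold at most 3 of these 4. In the same 3 libraries FAM162B stood at 1240 ± 527 CPM against 509 ± 306 in TCF21/EDIL3 fibroblasts, EDIL3 at 245 ± 60.2 against 236 ± 42.7 and BCHE, butyrylcholinesterase, at 19.2 ± 9.60 against 149 ± 66.6. A low level of the least detected of them follows from the rule. TCF21, a transcription factor of mesenchymal lineages, stood at 610, 793 and 1160 CPM against 974, 1090 and 1168 CPM in TCF21/EDIL3 fibroblasts and was lower in each library, most narrowly in Normal_2. Without the limit TCF21 stood at 488 ± 291 CPM in the WIF1/HHIP gate, and at 68.6 CPM in Normal_1.

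**Figure D2:**
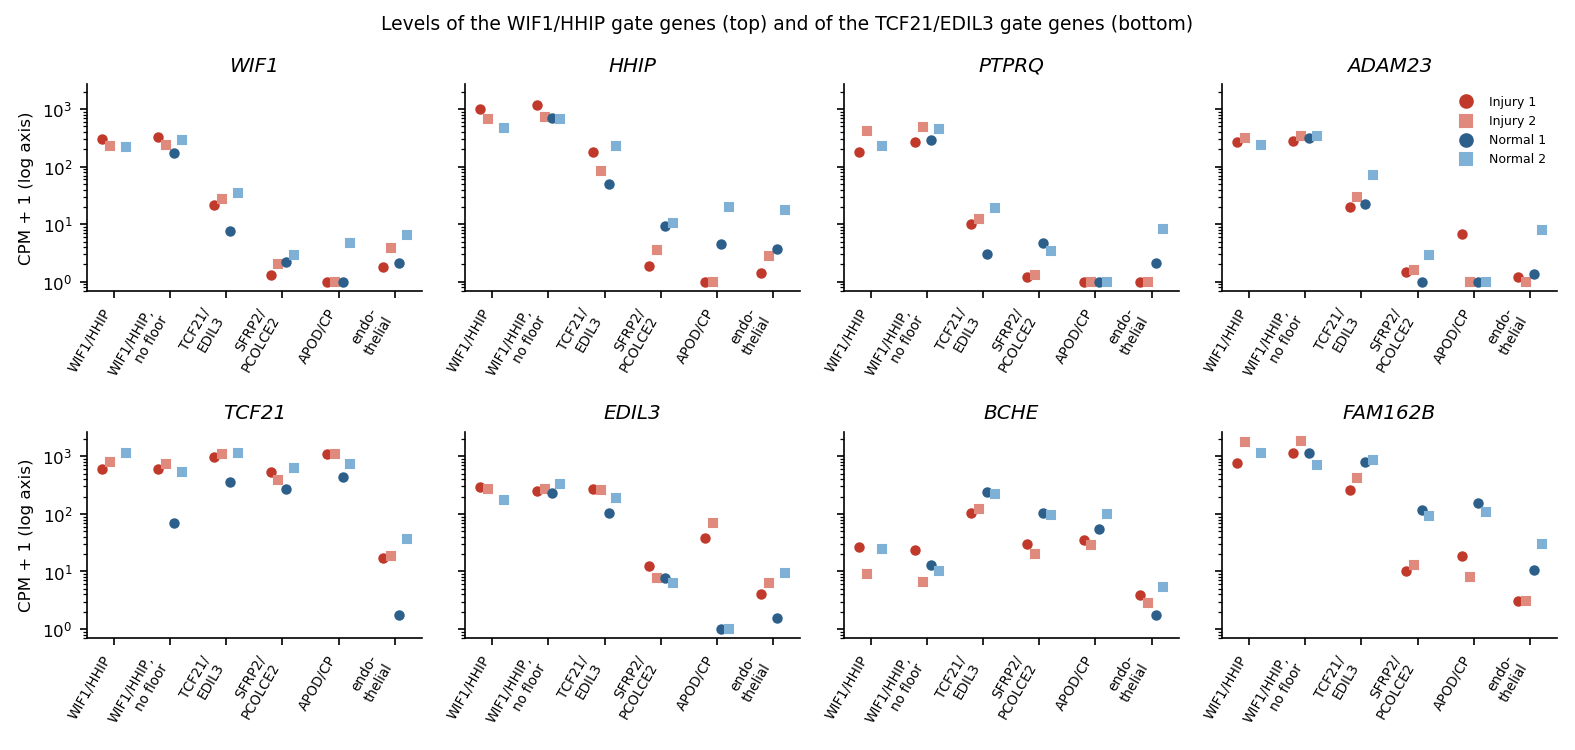
Level of the 4 WIF1/HHIP gate genes (top) and the 4 TCF21/EDIL3 gate genes (bottom) in 6 cell classes, as CPM plus 1 on a log axis, with 1 point per library. All 4 genes of the top row chose the first 2 classes. For libraries with at least 10 cells of a class, the points of these genes there lie above those of every other class. The 1 WIF1/HHIP fibroblast of Normal_1 had no UMI of HHIP or PTPRQ. TCF21/EDIL3 fibroblasts come next for WIF1, HHIP and ADAM23, while their PTPRQ points overlap those of SFRP2/PCOLCE2 and endothelial cells through Normal_1.

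Nearest neighbours were computed from 2000 variable genes without the genes of the rule, as a description of where these cells lie. Among the 20 nearest neighbours of a WIF1/HHIP fibroblast, 50.8% in Injury_1, 65.9% in Injury_2 and 59.1% in Normal_2 held at least 3 of the 4 WIF1/HHIP genes, whereas 1.76%, 3.82% and 19.2% of all kept cells did so. Of the neighbours of TCF21/EDIL3 fibroblasts, 8.90%, 9.24% and 22.2% did so. For SFRP2/PCOLCE2 fibroblasts these shares were 0.0243%, 0.153% and 0.536%. The gates of the neighbours were assigned without the DCN and LUM limit. Cells of the WIF1/HHIP gate then made up 29.6%, 31% and 18.3% of the neighbours (0.921%, 1.59% and 8.79% of kept cells), fewer than the 42.4%, 33.8% and 47.3% of the TCF21/EDIL3 gate (6.48%, 12.6% and 18.7% of kept cells). The SFRP2/PCOLCE2 gate made up 0.625%, 1.64% and 0.227% (20.5%, 23.8% and 12.6% of kept cells). Of the neighbours of the cells that the limit had removed, 72.2%, 78.3%, 55.2% and 83.8% in the 4 libraries held at least 3 of the genes, 46.9%, 44.1%, 44.6% and 46.9% lay in the WIF1/HHIP gate and 27.2%, 23.9%, 23.3% and 17.3% in the TCF21/EDIL3 gate.

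UMIs were then summed per library and class, and the WIF1/HHIP fibroblasts were compared with the other 3 gates together by the quasi-likelihood test of edgeR, with the library as a block and p-values adjusted over all genes tested by the Benjamini-Hochberg method. Normal_1 with its 1 cell was left out, which leaves 2 injury libraries and 1 normal library. The 20 genes of the rule were not tested, but genes whose counts follow them from cell to cell are not independent of the choice, and the demand for fewer TCF21/EDIL3 genes acts on the comparison with that gate. Of 7357 genes, 325 were higher and 523 lower at an adjusted p under 0.05, which is 4.42% and 7.11% of those tested. Against the TCF21/EDIL3 fibroblasts alone, 175 of 5370 genes were higher (3.26%) and 226 lower (4.21%), against the SFRP2/PCOLCE2 fibroblasts 415 of 6420 were higher (6.46%) and 471 lower (7.34%), and against the APOD/CP fibroblasts 97 of 2839 were higher (3.42%) and 153 lower (5.39%). The scaling between classes moved the fitted differences by -0.31, -0.16, -0.32 and -0.22 on the log2 scale from the ratios of CPM in these 4 comparisons. A log2 difference below is the fitted one, given with its standard error, and CPM values are listed for Injury_1, Injury_2 and Normal_2 in that order.

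The hedgehog list changed in PTCH1 only. PTCH1, the hedgehog receptor that is also a standard readout of the pathway, stood at 38.5, 22.6 and 20.9 CPM against 5.43, 5.84 and 9.12 CPM in the other gates, and was higher in each library (log2 difference 1.71 ± 0.40, adjusted p = 0.006, edgeR). The adjusted p was 0.0028 against SFRP2/PCOLCE2 fibroblasts (2.34 ± 0.40) and 0.071 against TCF21/EDIL3 fibroblasts (1.06 ± 0.37). Without the limit PTCH1 stood at 39.5, 30.4, 40.3 and 29.4 CPM over the 2 injury and then the 2 normal libraries. The difference from TCF21/EDIL3 cells, also taken without the limit, was 1.40 ± 0.22 (adjusted p = 0.0016, edgeR). Those TCF21/EDIL3 cells include cells under the limit, so the comparison group is not the one used above. In all, 1 of 9 hedgehog genes was higher and none lower, with a list median of -0.44 against -0.07 over all genes tested. SMO, the signal transducer, and GLI3, a transcription factor of the pathway, differed by -0.09 and -0.44 (adjusted p = 0.88 and 0.59), and the co-receptor BOC by 0.05 (adjusted p = 0.94).

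WNT ligands were split. WNT5A, a ligand of the non-canonical branch, stood at 64.2, 92.4 and 14.9 CPM against 2.26, 8.32 and 1.82 in the other gates, with a log2 difference of 3.51 ± 0.37 (adjusted p = 4.5e-07). WNT11, of the same branch, stood at 22.5, 63.7 and 56.7 CPM against 8.30, 11.0 and 14.3 (1.81 ± 0.30, adjusted p = 0.00021). Both were also higher than in TCF21/EDIL3 fibroblasts, by 2.23 ± 0.30 and 1.90 ± 0.30 (adjusted p = 5e-07 and 1.2e-05). WNT2, a canonical ligand, was lower, with 99.5, 53.4 and 38.8 CPM against 151, 200 and 55.9 (-1.40 ± 0.24, adjusted p = 0.00023). WNT2B had no UMI in these cells, which makes it at least 2.54-fold lower when 3 UMIs over the group are taken as the floor. Of 6 WNT ligands tested, 2 were higher and 2 lower, with a median of 1.01.

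The genes that receive or amplify WNT signals were lower where they passed the test, 3 of 8 with none higher and a median of -0.82. LRP6, a WNT co-receptor, stood at 48.1, 34.9 and 29.8 CPM against 95, 63.2 and 53.6 (-1.20 ± 0.23, adjusted p = 0.00079). The receptor FZD4 and the agonist RSPO3 had no UMI and were at least 2.52-fold and 3.19-fold lower. Extracellular antagonists other than WIF1 went both ways, with 2 of 8 higher, 2 lower and a median of -0.41. DKK3 (1.24 ± 0.30) and APCDD1 (2.72 ± 0.48) were the higher ones, with adjusted p = 0.0073 and 0.00042, and IGFBP4 (-1.70 ± 0.20) and SERPINF1 (-2.32 ± 0.13) the lower ones, with adjusted p = 3.6e-06 and 4.3e-11.

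Of 4 WNT target genes, 2 were higher and none lower, and without the limit 2 were higher and 1 lower. LEF1, a nuclear partner of beta-catenin, stood at 48.1, 41.1 and 8.95 CPM against 3.02, 5.78 and 5.14 (2.5 ± 0.46, adjusted p = 0.00059). AXIN2, a feedback inhibitor, stood at 25.7, 43.1 and 8.95 CPM against 5.96, 6.53 and 8.45 (1.66 ± 0.43, adjusted p = 0.014). In the 44 cells of Normal_2 both lay near the other gates, but without the limit LEF1 stood at 31.3 and 16.7 against 10.8 and 5.85 CPM and AXIN2 at 19.4 and 20.3 against 7.57 and 8.85 CPM in the normal libraries. Against TCF21/EDIL3 fibroblasts LEF1 was higher by 1.10 (adjusted p = 0.043) and AXIN2 differed by 0.90 (adjusted p = 0.15).

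BMP2, BMP4 and BMP5, ligands that act on neighbouring cells, were higher. BMP4 stood at 735, 1023 and 826 CPM against 290, 331 and 351 (1.10 ± 0.14, adjusted p = 1e-05). BMP2 stood at 196, 160 and 185 CPM against 45.4, 44.4 and 67.1 (1.5 ± 0.18, adjusted p = 2.5e-06) and BMP5 at 164, 296 and 122 CPM against 21.4, 30.8 and 49.2 (2.27 ± 0.26, adjusted p = 1.7e-06). For these 3 genes the lowest library of the WIF1/HHIP fibroblasts lay above the highest of the other gates. The share of all tested genes with such a gap is not given, and these genes had passed on the same values. They also passed against TCF21/EDIL3 fibroblasts, with 0.67 for BMP4, 0.58 for BMP2 and 1.10 for BMP5 (adjusted p = 0.00019, 0.019 and 1.6e-05). INHBA, the activin A subunit, stood at 292, 234 and 23.9 CPM against 108, 53.4 and 21.6 (1.22 ± 0.23, adjusted p = 0.00079). Its level near the other gates in Normal_2 rests on 44 cells, and without the limit INHBA stood at 762 and 221 against 71.4 and 30.3 CPM in the normal libraries. TGFB3 was the exception with 3.21, 2.05 and 0 CPM against 55.9, 36.2 and 12.1 (-4.59 ± 0.56, adjusted p = 4.1e-06).

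Over the list, 5 of 10 ligands of the BMP and TGF-beta family were higher and 1 lower, with a median of 0.84. No receptor was higher and 2 of 8 were lower. FST, follistatin, an antagonist of activin and BMP, stood at 930, 1216 and 29.8 CPM against 166, 103 and 27.8 (2.16 ± 0.33, adjusted p = 6.7e-05). Without the limit FST stood at 149 and 126 against 57.3 and 29.7 CPM in the normal libraries. It was the only antagonist of 12 to be higher, and 3 were lower, with a median of 0.13. Without the limit 1 of 10 was higher and 0 were lower, with a median of 0.48. None of 4 BMP target genes passed. ID1, the first of them, stood at 1639, 1390 and 1762 CPM against 1052, 1532 and 1436 (-0.04, adjusted p = 0.92).

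**Figure D3:**
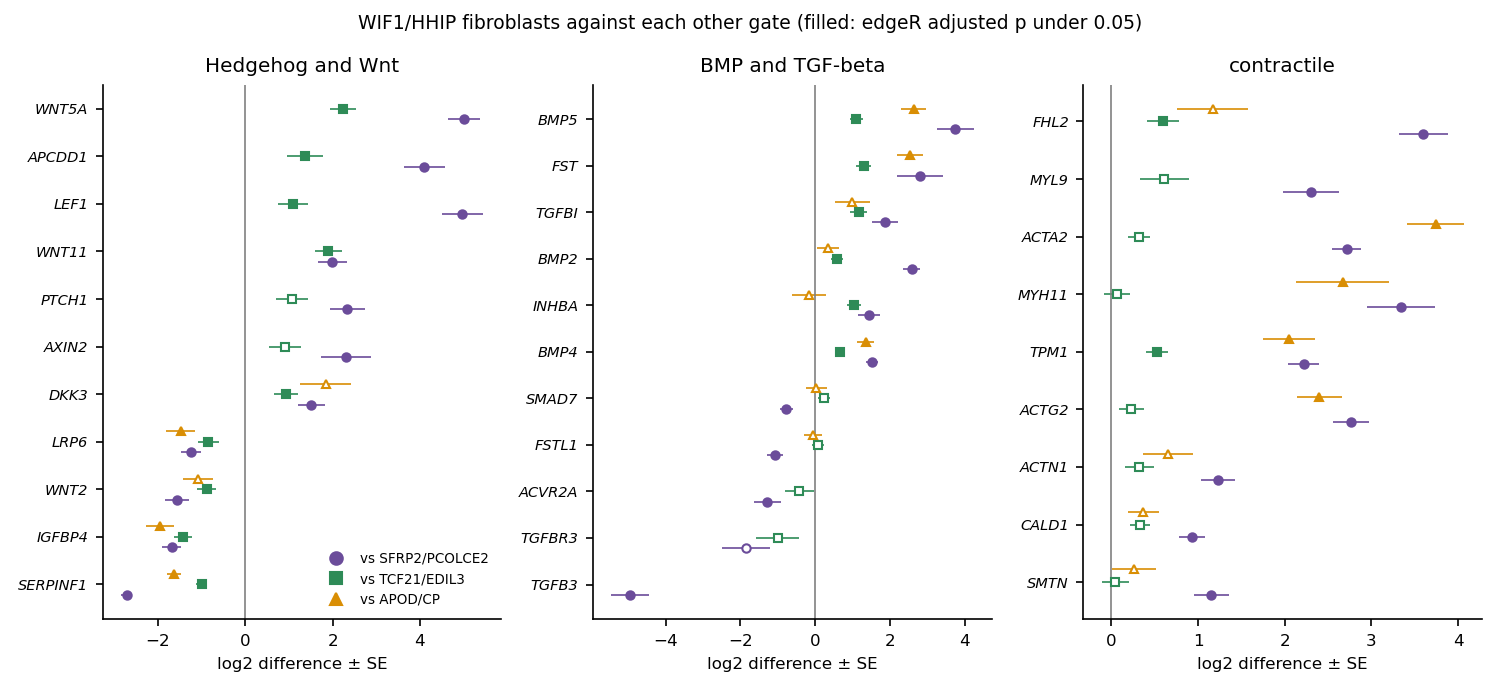
Fitted log2 difference with its standard error between WIF1/HHIP fibroblasts and each other gate over 3 libraries, for genes of the hedgehog, WNT, BMP and contractile lists that passed in the comparison with the 3 gates together and could be tested. Filled symbols passed an adjusted p of 0.05 in the comparison shown. The points for SFRP2/PCOLCE2 lie farther from 0 than those for TCF21/EDIL3 for most genes, and of the contractile genes only TPM1 and FHL2 have a filled TCF21/EDIL3 symbol.

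Growth factors outside these families were also measured. NRG1, neuregulin 1, a ligand of ERBB receptors, stood at 914, 643 and 23.9 CPM against 50.0, 59.1 and 6.80 (3.20 ± 0.25, adjusted p = 7.5e-09). PTHLH, parathyroid hormone-related protein, which relaxes smooth muscle, stood at 250, 363 and 86.5 CPM against 30.2, 34.7 and 5.80 (3.07 ± 0.20, adjusted p = 4.6e-10). Both were higher in each library, and both passed against TCF21/EDIL3 fibroblasts, by 1.52 and by 2.00 ± 0.20 (adjusted p = 7.3e-09 and 1.5e-09). PDGFC (2.32 ± 0.33, adjusted p = 2.4e-05), a PDGF receptor ligand, and the neurotrophins NTF3 (2.78 ± 0.38, adjusted p = 1.8e-05) and BDNF (1.61 ± 0.46, adjusted p = 0.026) were higher. BDNF had no UMI in the cells of Normal_2, so its difference rests on the injury libraries, with 37.6 CPM over both. FGF7, keratinocyte growth factor, stood at 86.6, 20.5 and 2.98 CPM against 166, 132 and 39.2 (-2.13 ± 0.29, adjusted p = 1.9e-05) and IGF1 at 154, 49.3 and 2.98 CPM against 285, 210 and 51.2 (-1.94 ± 0.26, adjusted p = 1.3e-05). These were lower in each library. In total 9 of 26 growth factors were higher and 5 lower, with a median of 0.70, and against TCF21/EDIL3 fibroblasts 6 of 24 were higher and 5 lower, with a median of 0.24.

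Contractile genes were raised over the SFRP2/PCOLCE2 cells but mostly shared with TCF21/EDIL3 fibroblasts. ACTA2, smooth muscle actin, stood at 732, 1033 and 1053 CPM against 169, 302 and 408 in the other gates together (1.44 ± 0.15, adjusted p = 5e-07), and MYH11, the smooth muscle myosin, at 475, 316 and 322 CPM against 79.3, 88.9 and 201 (1.40 ± 0.23, adjusted p = 0.00016). TPM1, a tropomyosin, stood at 982, 1347 and 719 CPM against 257, 326 and 343 (1.39 ± 0.17, adjusted p = 3.8e-06). For all 3 genes, which had passed on these same values, the groups did not overlap. The share of all tested genes without overlap is not given. Against TCF21/EDIL3 fibroblasts the differences were 0.32 ± 0.13 for ACTA2 (adjusted p = 0.14), 0.07 for MYH11 (adjusted p = 0.88) and 0.53 for TPM1 (adjusted p = 0.0045). Of 16 contractile genes 9 were higher and none lower than in the other gates together, with a median of 0.70, while against TCF21/EDIL3 fibroblasts 2 of 15 were higher, with a median of 0.14 beside 0.00 over all genes. DES differed by -0.46 (adjusted p = 0.85). In Normal_1 the smooth muscle markers summed to 732 CPM in the gate without the limit. The TCF21/EDIL3 and SFRP2/PCOLCE2 fibroblasts of that library had 163 and 118 CPM.

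The chains of type I collagen were lower and a few less common collagens were higher. COL1A1 stood at 6988, 8903 and 9954 CPM against 13038, 15325 and 12770 (-0.99 ± 0.10, adjusted p = 5e-07) and COL1A2 at 17617, 24541 and 22235 CPM against 32024, 42544 and 30700 (-1.01 ± 0.09, adjusted p = 2.6e-08). Neither passed against TCF21/EDIL3 fibroblasts (-0.20 and -0.18, adjusted p = 0.17 and 0.12), whereas COL3A1 did (-0.52, adjusted p = 7.6e-06). COL8A1, a short-chain collagen of vessel walls and basement membranes, stood at 167, 669 and 340 CPM against 26.9, 77.5 and 114 (2.15 ± 0.22, adjusted p = 3.6e-07), and COL12A1, which binds to collagen fibrils, stood at 539, 827 and 1431 CPM against 101, 154 and 478 (1.83 ± 0.17). COL24A1, a minor fibrillar collagen, was higher by 3.27 ± 0.57 (adjusted p = 0.00035). Over the list, 7 of 44 genes of the interstitial matrix were higher and 18 lower, with a median of -0.27.

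Basement membrane genes were lower in 7 of 18 cases, including LAMA4 (-2.0), LAMB1 (-1.11) and COL15A1 (-1.55), which code for laminin chains and a collagen anchored to basement membranes. NPNT, nephronectin, an integrin ligand of basement membranes, was the only one higher, at 6.42, 10.3 and 11.9 CPM against 0.754, 1.10 and 2.49 (2.49 ± 0.66, adjusted p = 0.015). Its level rests on few UMIs, since 3 UMIs correspond to 9.63, 6.16 and 8.95 CPM in these libraries, and in Injury_1 it lay below that. The list median was -0.56.

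Receptors for transmitters, prostanoids and purines are a group used to describe interstitial cells of the bladder. Against the other 3 gates together they were higher in 8 of 26 cases and lower in 2, with a median of 0.63. That pool held 1235, 1305 and 755 SFRP2/PCOLCE2 cells beside 310, 598 and 852 TCF21/EDIL3 cells. Values against TCF21/EDIL3 fibroblasts alone are not given for this list, so a level shared with that gate would not show here. EDNRB, the endothelin B receptor, stood at 526, 236 and 14.9 CPM against 38.9, 45.2 and 8.62 (2.47 ± 0.28, adjusted p = 1.8e-06), and ADORA2B, an adenosine receptor, at 193, 255 and 14.9 CPM against 31.4, 34.1 and 7.21 (2.25 ± 0.23, adjusted p = 4.5e-07). Without the limit EDNRB stood at 35.8 and 41.6 against 44.4 and 12.2 CPM in the normal libraries and ADORA2B at 158 and 60.3 against 30.5 and 19.7 CPM, so that ADORA2B in Normal_1 was about as high as in Injury_1 (160 CPM). The prostaglandin receptor PTGER2 (1.87 ± 0.40, adjusted p = 0.0029), the VIP receptor VIPR2 (1.28 ± 0.30, adjusted p = 0.0067) and the calcium channel gene CACNA1D (2.94 ± 0.63, adjusted p = 0.0027) were higher as well. NT5E, the ectoenzyme that makes adenosine from AMP, was nearly absent with 3.21, 2.05 and 14.9 CPM against 111, 61.1 and 224 (-4.63 ± 0.33, adjusted p = 1.3e-09). AGTR1, the angiotensin II receptor, was lower as well (-4.59 ± 0.48).

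Transcription factors were more often lower, with 10 of 34 lower, 2 higher and a median of -0.60, but against TCF21/EDIL3 fibroblasts 6 of 24 were lower and 1 higher with a median of -0.03. SOX5 stood at 138, 148 and 95.4 CPM against 13.5, 19.1 and 33.5 (2.32 ± 0.26, adjusted p = 1.3e-06) and passed against TCF21/EDIL3 fibroblasts (1.18 ± 0.19, adjusted p = 1.2e-05), and TBX2, a T-box factor, was higher by 1.54 ± 0.46 (adjusted p = 0.031). NFIB, a nuclear factor I protein, stood at 9.63, 16.4 and 8.95 CPM against 107, 99.0 and 64.4 (-3.19 ± 0.29, adjusted p = 6.8e-08). EBF1 (-4.24 ± 0.62, adjusted p = 4.5e-05) and PRRX1 (-3.88 ± 0.71, adjusted p = 0.00057), factors of many fibroblasts, were lower. FOXP2 had no UMI in these cells and was at least 7.38-fold lower.

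Chemokine, cytokine and complement genes were lower in 8 of 13 cases with none higher, and the median was -1.42. CCL2, a monocyte chemokine, stood at 38.5, 22.6 and 50.7 CPM against 1352, 968 and 255 (-4.68 ± 0.35, adjusted p = 3.2e-09), and against TCF21/EDIL3 fibroblasts the difference was -2.05 ± 0.34 (adjusted p = 2.1e-05). C1R, a complement protease, stood at 1303, 1099 and 1083 CPM against 3708, 2364 and 1789 (-1.42 ± 0.14, adjusted p = 2.2e-07). Axon guidance genes went both ways, with ROBO2 (1.22 ± 0.20, adjusted p = 0.00018) and SEMA3F (1.14 ± 0.20, adjusted p = 0.00035) among 3 higher, and SLIT3 (-2.0 ± 0.20, adjusted p = 3.2e-07) and SEMA3C (-2.25 ± 0.33, adjusted p = 4.5e-05) among 8 lower of 28. The median of this list was -0.39, or -0.26 with genes of 0 UMIs set at their bound, and no other list median moved by as much as 0.01 in that way. Against TCF21/EDIL3 fibroblasts 4 of 21 axon guidance genes were lower and 0 higher. Without the limit 6 of 26 were higher and 6 lower than in the other gates. Immediate-early and heat shock genes, which rise during tissue dissociation, were lower in 3 of 10 cases and higher in none. Without the limit 1 of 10 was lower and 1 higher.

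Among the genes that passed, had a symbol, averaged 20 CPM or more where they were higher and kept 1 direction in every library, the highest differences belonged to a mixed group. CCDC3, a secreted protein of fat and vessel walls, led with 54.5, 251 and 107 CPM against 1.28, 4.56 and 7.38 (4.72 ± 0.32, adjusted p = 9.6e-10), and it stayed ahead of TCF21/EDIL3 fibroblasts by 3.65 ± 0.25 (adjusted p = 1.4e-14). NR1H4, the bile acid receptor FXR, was higher by 3.93 ± 0.51 and NEFL, a neurofilament chain, by 3.78 ± 0.54 (adjusted p = 8.6e-06 and 2.8e-05). MMP10, stromelysin 2, stood at 305, 331 and 83.5 CPM against 33.2, 17.8 and 14.8 (3.11 ± 0.24, adjusted p = 5.8e-09) and ALPL, alkaline phosphatase, at 266, 394 and 182 CPM against 15, 18.3 and 70.0 (3.08 ± 0.36, adjusted p = 3e-06). The cation channel TRPC6 (2.99 ± 0.50, adjusted p = 0.00021) and SCUBE3 (2.98), a secreted co-receptor ligand, were in the same group, as were CPN1, PARM1, LNP1 and MFAP3L with 2.99 to 3.53. CCNB2, cyclin B2, was higher by 3.24 ± 0.47 (adjusted p = 3.6e-05), but its UMIs came from 6 of the 140 cells, whose median depth was 10288 to 14712 UMIs where a library held more than 1 of them, and with the gate set on cells thinned to 2000 UMIs the difference turned to -1.73 (adjusted p = 0.542). Against TCF21/EDIL3 fibroblasts the mitotic genes CCNB2 (4.10), NDC80 (3.36), ANLN (2.49) and CENPE (1.82) were among the 15 highest by the same rule. The proliferation markers TOP2A and CDK1 together stood at 70.6 to 74.6 CPM, against 34.0 to 44.4 CPM in TCF21/EDIL3 fibroblasts of the same 3 libraries, and 0 of these 2 passed (adjusted p = 0.10 for TOP2A and 0.11 for CDK1). In Normal_1 the order was the other way, with 77.5 CPM in the gate without the limit against 99.3 CPM in TCF21/EDIL3 fibroblasts.

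At the low end, ITGBL1, an integrin-like secreted protein, stood at 0, 2.05 and 0 CPM against 213, 204 and 71.6 (-7.85 ± 0.45, adjusted p = 9.6e-11) and LVRN, an aminopeptidase, at 3.21, 2.05 and 0 CPM against 238, 289 and 231 (-7.47 ± 0.37, adjusted p = 1.2e-11). MYOC, TNLG7A and PEAR1 had no UMI and were at least 22.8-fold, 20.8-fold and 9.24-fold lower. ABCA6, ABCA8, CARD6, LRRC17 and ADH6 were lower by 5.01 to 6.39 on the log2 scale in the fit. Among better known genes, CD34, a surface protein of many stromal cells, stood at 3.21, 6.16 and 23.9 CPM against 186, 326 and 216 (-4.85 ± 0.33, adjusted p = 9.6e-10) and passed against TCF21/EDIL3 fibroblasts (-3.06, adjusted p = 2.4e-09), and S100A4, a calcium-binding protein often used as a fibroblast marker, stood at 266, 228 and 334 CPM against 3421, 3861 and 3884 (-4.07 ± 0.14, adjusted p = 1.4e-14). CD34 and S100A4 were picked for naming after their values had been seen.

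The gate without the limit allowed a comparison over 4 libraries. Of 6803 genes, 564 were higher (8.29%) and 539 lower (7.92%) than in the other 3 gates, and of 822 genes that had passed in the 140 cells and were tested again, 619 passed in the same direction and 0 in the opposite one, while the other 203 did not pass. By sign alone 809 kept their direction and 13 turned. The 2 sets share cells, so that this is not a second experiment. WNT5A (3.46), CCDC3 (4.29), PTCH1 (2.03 ± 0.25), NRG1 (3.23) and PTHLH (3.01) were again higher, and NFIB, MEIS1, SLIT3 and CD34 again lower. TGFBI no longer passed (1.07, adjusted p = 0.054), nor did AREG (1.11, adjusted p = 0.12) and ALDH1A2 (0.41 ± 0.59, adjusted p = 0.7). The other gates also take in cells under the limit here, so the comparison group is not the same. Against TCF21/EDIL3 cells, 4.46% of 6217 genes were higher and 4.79% lower, and contractile genes were higher in 2 of 16 cases and lower in 1. Pericyte markers were lower in 3 of 3 cases, with HIGD1B, a pericyte gene, at 95.1, 72.9, 30.2 and 31.9 CPM in the TCF21/EDIL3 cells without the limit. With the limit all 4 pericyte markers together reached 12.7 to 21.8 CPM in that gate.

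Injury and normal libraries could be compared in 2 ways. In the 140 cells there were 2 injury libraries and Normal_2 alone, which was assumed to vary like the others, and 124 of 3557 genes were higher in injury and 56 lower (3.49% and 1.57%). Without the limit there were 2 libraries on each side, and edgeR called 2 of 4352 genes, EREG and SCARA5, both higher (0.046%), with 297 genes at an unadjusted p under 0.05 and 39 called by DESeq2. In that fit the groups did not overlap for 38.4% of genes, and of the 15 higher and 9 lower genes named from the 140 cells that were tested here, 9 and 7 did not overlap either (1 more lower gene, MAPT, was not tested). Of the 177 genes called in the 140 cells that were tested again, 2 passed. CPM values that follow are listed for the 2 injury and then the 2 normal libraries by number, and come from the gate without the limit.

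EREG, epiregulin, a ligand of the EGF receptor, stood at 353 and 193 CPM in injury and at 0 and 2.03 CPM in normal libraries (7.19 ± 0.65, adjusted p = 0.0208). TCF21/EDIL3 cells showed the same, with 792 and 326 against 0.503 and 0.778 CPM (9.58 ± 0.68, adjusted p = 0.02), and SFRP2/PCOLCE2 cells too at a lower level, with 40.9 and 19.9 against 0 and 0.332 CPM (6.79 ± 0.73, adjusted p = 0.033). In those gates 4 of 7062 genes (0.0566%) and 10 of 7591 genes (0.132%) passed. SCARA5, a ferritin receptor of adventitial fibroblasts, stood at 143 and 135 against 10.4 and 7.86 CPM (3.88 ± 0.39, adjusted p = 0.0208). Its differences in the TCF21/EDIL3 and SFRP2/PCOLCE2 cells were 1.00 (adjusted p = 0.27) and 0.59, and the difference between the WIF1/HHIP effect and that of the other gates was 2.85 ± 0.34 (adjusted p = 0.00056), among 78 genes with such an interaction (1.04%), beside 77 genes (0.907%) in the 140 cells.

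DCN and LUM, which the limit used, differed widely in level. DCN stood at 11102 and 8125 CPM in injury and at 265 and 1042 CPM in normal libraries (3.76 ± 0.59, adjusted p = 0.103), and LUM at 5708 and 4612 against 98.4 and 402 CPM (4.24 ± 0.61, adjusted p = 0.103). The groups lay far apart in both genes but neither passed, and the gate without the limit was formed because of these 2 genes, which makes the values a description. In the TCF21/EDIL3 cells DCN stood at 21726 and 21643 against 17481 and 14315 CPM (0.47, adjusted p = 0.45). COL1A2 in the WIF1/HHIP gate differed by 0.35 ± 0.40 (adjusted p = 0.96), with 16681, 24541, 8422 and 21598 CPM. Endothelial and epithelial markers in the WIF1/HHIP gate without the limit ranged from 23.3 to 27.1 and from 35.9 to 101 CPM over the 4 libraries. Immune markers were higher in both injury libraries, with 39.5 and 31.8 against 10.4 and 12.7 CPM. Normal_1 stood apart in other lists. The 6 fibroblast markers without DCN and LUM summed to 21035 CPM there against 37617 to 55445 CPM in the other libraries, and smooth muscle markers to 732 against 1818 to 2540 CPM. Pericyte markers were 0 and 1.38 CPM in injury and 20.9 and 9.63 CPM in normal libraries. The part of these markers in the results was not tested, and whether the cells of the normal and the injured mucosa are the same kind of cell was not tested.

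Other ligands were higher in both injury libraries than in both normal ones without passing the test. AREG, amphiregulin, stood at 2684 and 1581 against 264 and 65.4 CPM (3.58 ± 0.66, adjusted p = 0.114), NRG1 at 952 and 540 against 143 and 64.9 CPM (2.73 ± 0.51, adjusted p = 0.114) and FST at 1019 and 1004 against 149 and 126 CPM (2.76 ± 0.34, adjusted p = 0.0701). IGF1 stood at 118 and 38.7 against 1.49 and 4.05 CPM (4.31 ± 0.68, adjusted p = 0.103). ADAMDEC1, an ADAM-like protease of mucosal stroma, ran the other way with 281 and 369 against 1666 and 1533 CPM (-2.41 ± 0.33, adjusted p = 0.103), as did LPL, lipoprotein lipase, with 12.3 and 29.0 against 127 and 901 CPM (-4.66 ± 0.95, adjusted p = 0.174). These 6 genes were among those named for having passed in the 140 cells, with Normal_2 alone as the normal group and cells that both sets share, so that their values there are no second support. They were 7.19 ± 0.42 for AREG, 5.01 ± 0.46 for NRG1, 5.16 ± 0.44 for FST, 4.87 for IGF1, -2.71 ± 0.29 for ADAMDEC1 and -6.29 for LPL.

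Of the genes called in the 140 cells that were tested again, 143 kept their direction without the limit and 34 turned. Only EREG and SCARA5 passed there. MMP3, stromelysin 1, was higher in injury in the 140 cells (adjusted p = 7.3e-07), by at least 26.2-fold when 3 UMIs in Normal_2, which had none, are taken as the floor, yet without the limit it stood at 271 and 134 against 588 and 322 CPM (-1.31, adjusted p = 0.62). Normal_2 itself went from 0 CPM in its 44 cells to 322 CPM in its 530, so the cells under the limit carried the transcript. INHBA turned from 3.44 (adjusted p = 1.7e-05) to -1.04 (adjusted p = 0.84), with 271, 249, 762 and 221 CPM. CXCL8, a neutrophil chemokine, fell back from 4.36 to 1.14 (adjusted p = 0.76), with 3108, 1284, 1291 and 519 CPM. Among genes that set the 140 cells apart from other fibroblasts, the differences between injury and normal libraries without the limit varied widely. PTCH1 stood at -0.10 (adjusted p = 0.99), BMP5 at 0.81 (adjusted p = 0.72), WNT5A at 1.08 (adjusted p = 0.72) and PTHLH at 1.39 (adjusted p = 0.46), while EDNRB differed by 3.14 ± 0.54 (adjusted p = 0.112), and none of these 5 passed. EREG was the only growth factor of 20 to pass, and no other list had a member that did.

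**Figure D4:**
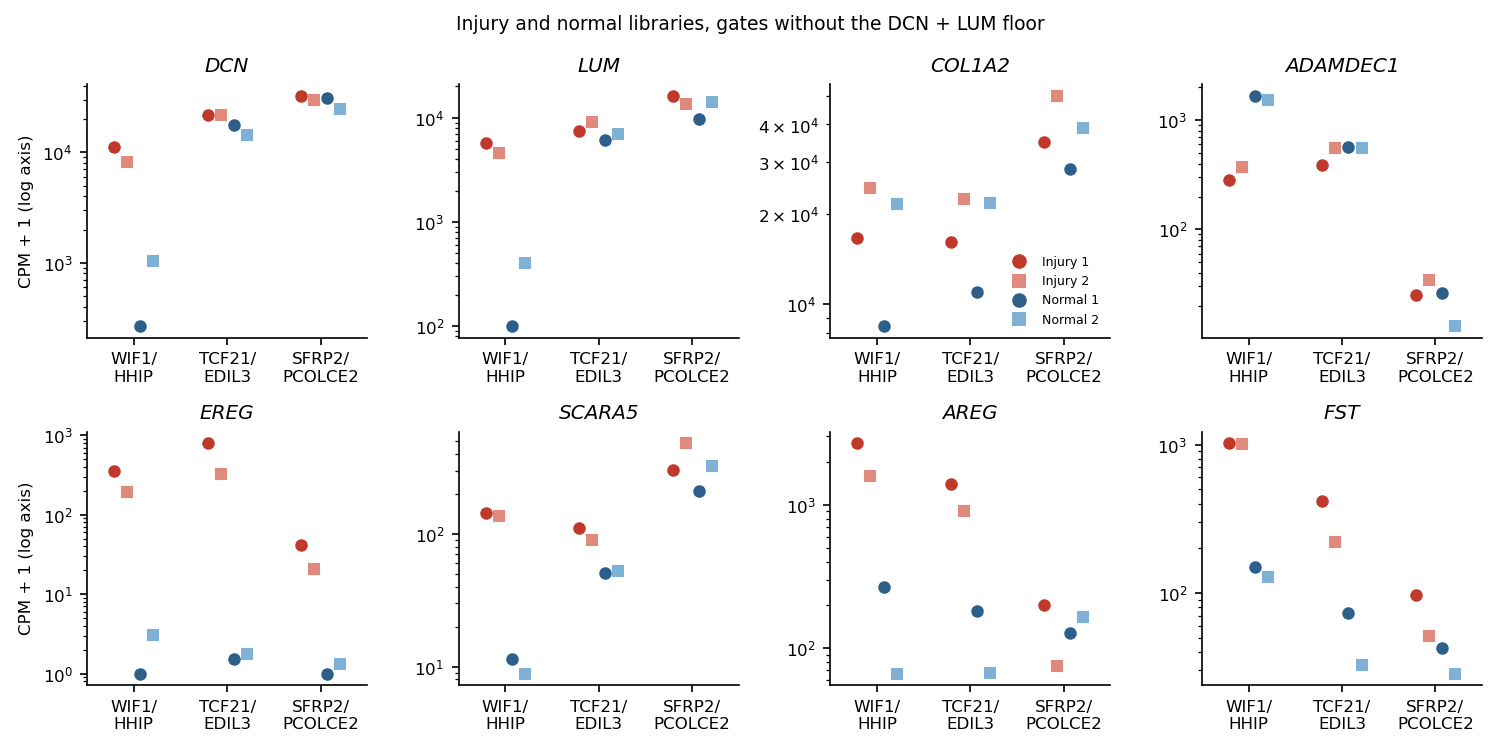
Level of 8 genes in 3 gates without the DCN and LUM limit, as CPM plus 1 on a log axis, with red for injury and blue for normal libraries. In the WIF1/HHIP gate DCN and LUM lie far lower in both normal libraries, ADAMDEC1 lies higher in them and EREG falls to 2.03 CPM or less, while DCN, LUM and ADAMDEC1 lie close together in the 2 other gates.

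The share of these cells depended on the limit. By the rule they made up 1.99% of fibroblasts in Injury_1 (95% Wilson interval 1.46% to 2.70%), 2.31% in Injury_2 (1.78% to 3.00%), 0.106% in Normal_1 (0.0187% to 0.598%) and 1.96% in Normal_2 (1.46% to 2.62%). The injury mean of 2.15% ± 0.230 (SD, n = 2) and the normal mean of 1.03% ± 1.31 (SD, n = 2) differed by 1.12 percentage points (exact permutation test, two-sided, p = 0.333, the smallest that 2 against 2 allows). Both normal libraries lay below both injury libraries, Normal_2 narrowly, with counting intervals that overlap, and Normal_1 far below. With a mitochondrial limit of 10% Normal_2 lay above Injury_1 (1.53% against 1.28%), as it did without the 5% highest Scrublet scores (1.970% against 1.957%). Of all kept cells they made up 0.658%, 0.995%, 0.0232% and 0.730%, so that Normal_2 lay above Injury_1 (difference 0.45 percentage points, exact permutation p = 0.667). On that same denominator the gate without the limit held 0.921%, 1.59%, 2.58% and 8.79%, and both normal libraries lay above both injury libraries (difference -4.43 percentage points, exact permutation p = 0.333). As a share of the cells of all 4 gates the values were 3.20%, 4.15%, 12.7% and 21.4%, and a test on cell numbers in edgeR gave a log2 difference of -2.22 ± 0.69 (adjusted p = 0.0249) with this denominator. There the SFRP2/PCOLCE2 gate was higher in injury (1.05, adjusted p = 0.00397) and the TCF21/EDIL3 gate lower (-0.72, adjusted p = 0.032), and since the 4 shares add up, they are not independent. Over all kept cells the WIF1/HHIP difference was -2.18 ± 0.99 (adjusted p = 0.234), and by the rule, among fibroblasts, 0.94 ± 2.14 (adjusted p = 0.669). The intervals cover counting error only, and dissociation and the dissected area also set such shares.

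**Figure D5:**
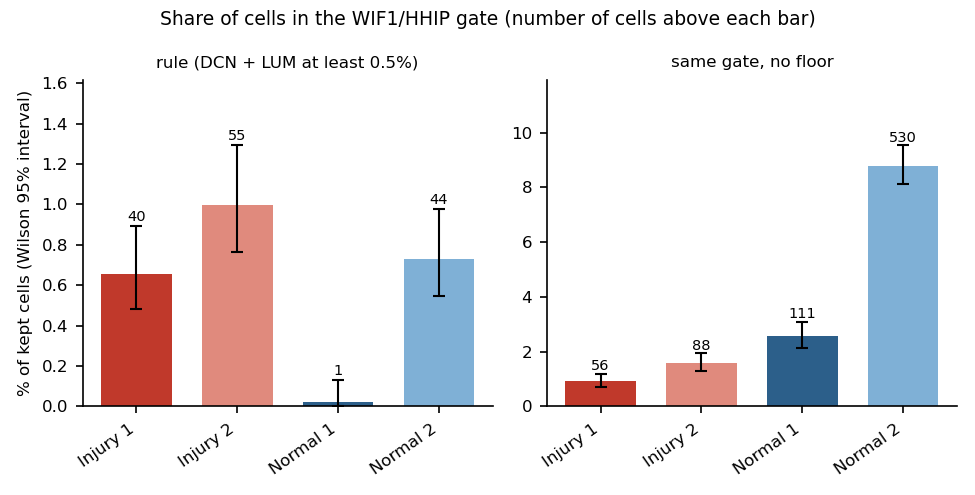
Share of kept cells in the WIF1/HHIP gate with the DCN and LUM limit (left) and without it (right), in percent with 95% Wilson intervals and the number of cells above each bar, on axes of different height. Normal_1 has 1 cell on the left and 111 on the right, and the injury libraries are lowest on the right with 56 and 88 cells.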

How the data were processed

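From droplet libraries of the 3' ends of transcripts, the authors obtained UMI counts with Cell Ranger 6.0.1 and deposited 1 filtered matrix of raw counts per rabbit. The genome release is not given in the sources used here. The 4 matrices list 18475 genes, 9771 of them with a symbol, and every sample maps to its group by its title. Totals were 28745017 to 47881609 UMIs per library. The replicates are separate rabbits.

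The members and the gene lists were chosen with earlier results of these data known. Cells were selected by the rule in Python 3.11.15 (numpy 2.4.6, scipy 1.17.1, pandas 2.3.3), neighbours and Scrublet scores came from scanpy 1.11.5 (no cell was removed as a doublet), and plots from matplotlib 3.10.9. UMIs were summed per library and class with at least 10 cells and tested in R 4.3.3 with edgeR 4.0.16 (filterByExpr, TMM, quasi-likelihood test), with the library as a block between classes. DESeq2 1.42.0 was an alternative. Single values used exact permutation tests. The scripts were tested on simulated data. For the comparison of classes, 45.4% of 2-fold and 75% of 4-fold changes were recovered, and 7.2% of the calls were false. For injury without the DCN and LUM limit these values were 1.08%, 41.7% and 2.38%. For the interaction without that limit they were 17.7%, 66.7% and 8.79%. A gene that did not pass for injury can thus still have changed.

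Named genes passed an adjusted p of 0.05 with a symbol, a mean of 20 CPM or more in the group where the gene was higher, and 1 direction in every library (no overlap for injury), the 15 highest and 10 lowest differences. Genes of the lists were named in addition. Alternatives were other gates, scalings, filters, limits on cells, DESeq2 and leaving out each library. The gate without the DCN and LUM limit was added after the data had been seen.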

Additional observations from a re-analysis of the deposited data

Results flagged for a closer look

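The effect of injury on the WIF1/HHIP gate differed from its effect on the other 3 gates for 78 genes when the DCN and LUM limit was not applied, and for 77 genes in the cells of the rule, where Normal_2 alone stands for the normal group (1.04% and 0.907% of the genes tested, edgeR interaction term). Values below are log2 differences between the 2 effects without the limit, and a positive one means a larger rise or a smaller fall in the WIF1/HHIP gate. The other 3 gates were summed together per library, so a change in their mix of cells enters these values. They held 1248 and 1314 SFRP2/PCOLCE2 cells in the injury libraries and 296 and 761 in the normal ones. TCF21/EDIL3 cells numbered 394 and 696 in injury and 398 and 1125 in normal libraries. The part of this mix in the differences was not tested.

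Without the limit 33 were positive and 45 negative. The 15 highest by the rule for named genes were PI15 (4.91), LUM (3.82), FAM20A (3.62), DCN (3.47), ALDH1A2 (3.25), SCARA5 (2.85), TRPA1 (2.80), SLC7A3 (2.33), CYP4B1 (2.32), HGF (2.32), CALY (2.21), AREG (2.2), WDR86 (2.03), CELF2 (1.90) and SEMA4D (1.87). DCN and LUM are the genes of the limit, and the set without it was formed because of their values, so both are a description. DCN in the other gates stood at 29926 and 27083 CPM in injury and 23714 and 18950 CPM in normal libraries, and LUM at 14227 and 12152 against 7975 and 10222 CPM. PI15, a secreted protease inhibitor, stood at 41.9, 19.3, 0 and 0.76 CPM in the WIF1/HHIP gate.

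The 10 lowest by the same rule were FNDC1 (-11.82), COCH (-4.68), CCL2 (-3.32), EDN1 (-2.94), BMP6 (-2.91), SRPX2 (-2.78), CD44 (-2.38), TNFAIP6 (-2.25), GATA3 (-2.24) and FAM13C (-2.22). FNDC1 had no UMI in the injury libraries of the gate and 20.9 and 41.1 CPM in the normal ones, so its fitted value is no measure of size. CCL2 stood at 41.9, 20.7, 35.8 and 61.3 CPM in the gate and at 1456, 1051, 175 and 292 CPM in the others. CD44, the hyaluronan receptor, stood at 56.7, 78.7, 163 and 145 CPM in the gate and at 85.3, 44.5, 19.4 and 37.3 CPM in the others. The cause of these differences was not tested.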

How the results depend on the processing

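The number of genes that differed between the cells of the rule and the other gates (848) came to 475 with DESeq2, 430 with the gate set on cells thinned to 2000 UMIs, 143 without the library as a block and 517 to 1010 with 1 library left out (517 without Injury_2). Without the DCN and LUM limit (1103) leaving out 1 library gave 705 to 1100 (705 without Injury_2 and 720 without Normal_2). The count for injury in the cells of the rule (180) came to 33 with DESeq2 and 18 with a mitochondrial limit of 10%. Without the DCN and LUM limit the count for injury (2) came to 39 with DESeq2, 1 with the thinned gate, 120 without a filter on low counts and 0 to 388 with 1 library left out (0 without Normal_1, 388 without Normal_2, 25 without Injury_1 and 14 without Injury_2). The count of differing injury effects (78) came to 133 with at least 3 gate genes and 83 to 224 with 1 library left out (132 without Injury_2, 138 without Normal_1 and 224 without Normal_2).

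The share difference of 1.12 percentage points ranged from 0.196 to 2.05 with 1 library left out. It came to 0.45 over all kept cells, 0.66 with the thinned gate, 0.80 with a mitochondrial limit of 10% and 1.16 without the 5% highest Scrublet scores. In each of these settings the groups overlapped (exact permutation p = 0.667). The difference was reversed without the DCN and LUM limit: -4.43 of all kept cells (-7.54 to -1.32 with 1 library left out), -13.4 of the 4 gates and -4.18 with at least 3 genes. It came to -3.21 in cells thinned to 2000 UMIs. With at least 3 genes and also no comparison between gates it was -8.54, and the groups overlapped (exact permutation p = 0.667). CCNB2 was reversed with the thinned gate (-1.73, adjusted p = 0.542). Over the 25 genes named between classes, 286 alternative fits kept the call, 12 lost it and 1 was reversed.

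Replicate numbers pair nothing in the labels (correlation of same-numbered deviations 0.111 over 4362 genes, 2 pairs). The replicate block gave 43 genes for injury without the limit, and share differences of 1.88 and 0.358 by the rule (mean 1.12) and -1.66 and -7.20 without the limit (mean -4.43). In the cells of the rule, neither the block nor leaving out a library could be fitted for injury, since Normal_1 holds 1 cell. Under DESeq2's size factors 0 of 142 list genes that passed changed direction and 4 no longer passed (ACVR2A, SMAD7, TGFBR3 and ZFP36). The cause of these shifts was not tested. Depth limits low genes, since 3 UMIs correspond to 9.63, 6.16 and 8.95 CPM in the 3 libraries of the 140 cells.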
